A study of Homo sapiens with 6 samples.

Results

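The cytosolic ribosomal protein genes were taken as the protein-coding genes whose symbol is RPL or RPS followed by a number and at most an A or X, together with RPLP0, RPLP1, RPLP2 and RPSA. This rule found 77 genes among the 60609 listed, of which 31 encode small subunit proteins, 43 encode large subunit proteins and 3 encode the acidic stalk (P-stalk). All 77 passed the filter on low counts and were among the 20725 genes tested. The rule used symbols only and no measured value.

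Polyadenylated RNA was sequenced with a stranded kit in OCI-AML5, an established human acute myeloid leukemia line. In 3 libraries the cells had received DMSO, the solvent control, and in 3 libraries they had received S767, a small molecule that binds metals, at 1 μM, in both groups for 24 hours. Both groups were grown in αMEM with 10% heat-inactivated FBS and 10 ng/mL GM-CSF, and no other agent or genetic change is given for either. The paper states that the cells were treated in triplicate, and the labels number the libraries 1 to 3. Neither says whether the cultures were independent, so p-values measure the spread between these samples, which may be technical.

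Each ribosome holds a single copy of most ribosomal proteins, and their mRNAs are among the most abundant of a growing cell. Most of these mRNAs begin with a C followed by a run of pyrimidines, the 5′ terminal oligopyrimidine (TOP) motif, through which LARP1 and mTOR signaling set their translation. Mature ribosomal protein mRNAs have been copied back into the genome many times as processed pseudogenes, so a sequenced fragment can match several places, and free RPL5 and RPL11 bind MDM2 when ribosome assembly fails.

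Depth was high and even between groups. Gene counts ranged from 149994700 to 258029564 per library, and fragments that mapped to several places made up 7.27% to 7.56% of the fragments. The myeloid markers PTPRC, CD33, SPI1 and CEBPA lay between 65.7 and 259 TPM (the length-corrected abundance that RSEM gives, with the same total in each library), MPO between 12.6 and 26.6 TPM, while CD34 stayed at or under 2.65 TPM, KIT at or under 0.42 TPM and ANPEP at or under 0.09 TPM. T cell, erythroid and epithelial markers were at or under 0.78 TPM and CD79A was at 6.63 to 11.2 TPM. In bulk RNA, fewer cells of a type and less RNA per cell cannot be told apart.

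The start sites of these genes showed the TOP motif. In the RefSeq promoter table (GRCh38.p14) 62 of the 77 genes had an entry, and 50 of them (80.6%) had a C followed by at least 4 bases that are each C or T, read on the gene's strand and beginning within 5 bases of the annotated start. The same match was found in 21.1% of all 27305 promoters of the table and in 15 of 69 genes for mitochondrial ribosomal proteins (21.7%). At the start base itself it was found in 42 of the 62 genes (67.7%), against 4.04% of all promoters. The windows below run from 10 bases before the start to 19 bases after it, with the matched run in capitals. The first 8 are shown because they carry the motif in small subunit, large subunit and stalk genes that return in the comparisons, and the last 4 because no match was found in them.
RPS19, chr19:41860245-41860274, + strand: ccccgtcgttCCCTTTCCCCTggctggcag
RPS6, chr9:19380217-19380246, - strand: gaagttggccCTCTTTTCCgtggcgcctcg
RPS10, chr6:34426050-34426079, - strand: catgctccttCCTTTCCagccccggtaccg
RPL26, chr17:8383174-8383203, - strand: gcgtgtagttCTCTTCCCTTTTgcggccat
RPL28, chr19:55385922-55385951, + strand: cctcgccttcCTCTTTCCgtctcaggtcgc
RPL36A, chrX:101391001-101391030, + strand: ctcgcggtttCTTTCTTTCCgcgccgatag
RPL39, chrX:119791611-119791640, - strand: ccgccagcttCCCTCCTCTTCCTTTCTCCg
RPLP0, chr12:120201092-120201121, - strand: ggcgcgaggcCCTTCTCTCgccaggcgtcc
RPS27A, chr2:55231893-55231922, + strand: agtgacacacaagacccagactcttcccta
RPS15, chr19:1438386-1438415, + strand: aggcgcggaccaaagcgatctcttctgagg
RPL10, chrX:154398055-154398084, + strand: ccactctcagaaatatacgtctgtcacagt
RPL17, chr18:49492446-49492475, - strand: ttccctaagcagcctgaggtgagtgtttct

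The TPM of these genes, summed, made up 19.7% to 21.3% of the total of all genes in each library, and 65 of the 77 were among the 100 genes with the highest mean TPM. The median of the 77 mean TPM values was 2543, and the highest exceeded the lowest by 8.57-fold. The highest mean was that of RPL41, which encodes the smallest protein of the ribosome, at 5093 TPM, and RPS27 was also among the top 3, at 4691 TPM. Their values overlapped, since RPL41 ranged from 4944 to 5327 TPM over the 6 libraries and RPS27 from 4492 to 4973 TPM.

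At the low end stood RPL22 at 595 TPM, RPS4X at 833 TPM and RPS26 at 1017 TPM. RPL22 (567 to 614 TPM), RPS4X (808 to 857 TPM) and RPS26 (1000 to 1049 TPM) did not overlap with each other in any library. By subunit the median TPM was 2706 for the small subunit, 2344 for the large subunit and 3268 for the stalk. The stalk genes, which encode the proteins that recruit the translation GTPases, had mean TPM values of 3268 for RPLP0, 1955 for RPLP1 and 3591 for RPLP2.

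**Figure D1:**
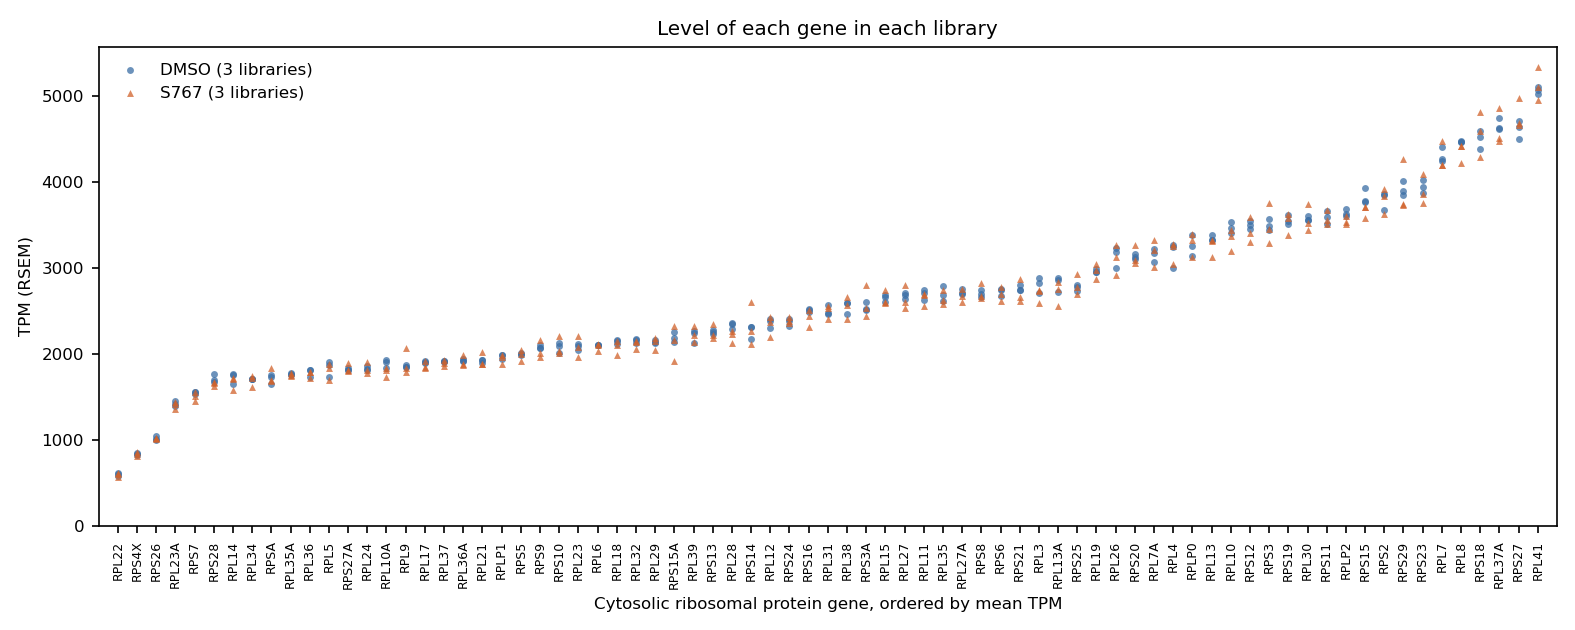
TPM on the vertical axis is plotted for 75 of the 77 genes in the 3 DMSO libraries (circles) and the 3 S767 libraries (triangles), ordered by mean TPM. The values rise from 595 for RPL22 to 5093 for RPL41, and DMSO and S767 points lie over each other.

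In these genes no difference between S767 and DMSO was detected after adjustment, with or without the replicate number as a block. The bounds on it were tight. The fits that come first leave out the replicate number. In the deposited STAR gene counts, compared by edgeR's quasi-likelihood test, 0 of the 77 genes had P under 0.05, against 3.53% of all genes tested, and the lowest P was 0.108, for RPS15. With limma-voom and with DESeq2 it was also 0 of 77, against 3.42% and 3.07% of all genes. After Benjamini-Hochberg adjustment 0 of the 77 and 0.00483% of all genes passed, which is 1 gene, and the lowest adjusted p of the 77 was 1. The log2 fold changes ran from -0.076 for RPL26 to 0.058 for RPS27A, which are folds of 0.949 and 1.04. Of the 77, 0 lay beyond 0.1 in size, against 38.6% of all genes, a share that includes genes with low counts. Their median was -0.0010, against -0.00024 for all genes tested, and 36 of the 77 (46.8%) were above 0, against 49.8% of all genes. In the 77 mitochondrial ribosomal protein genes tested, the log2 fold changes ran from -0.104 to 0.060. No set of like abundance was compared.

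The intervals were narrow. The 95% confidence interval of the log2 fold change had a median half-width of 0.12, it lay within 0.2 of 0 on both sides for 73 of the 77 genes, and over all 77 genes it reached no further than -0.33 and 0.34. Both extremes belong to RPL36A, which had few STAR counts. A single gene compared by the exact permutation test of 3 libraries against 3 cannot reach a two-sided p below 0.1.

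The libraries with the same replicate number deviated together, and fitting the number as a block narrowed the intervals to a median half-width of 0.063. With the block, 5 of the 77 genes (6.49%) had P under 0.05, against 16.8% of all genes tested, and 0 of the 77 passed the adjustment, against 3.23% of all genes. Of the 5 genes, 1 was above 0 (RPS27A), against 9.38% of all genes, and 4 were below 0 (RPL26, RPL28, RPS15 and RPL10A), against 7.39%. The lowest adjusted p with the block was 0.156, for RPL26. The 95% intervals with the block ran from -0.14 to 0.23 over all 77 genes and lay within 0.2 of 0 for 76 of them.

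**Figure D2:**
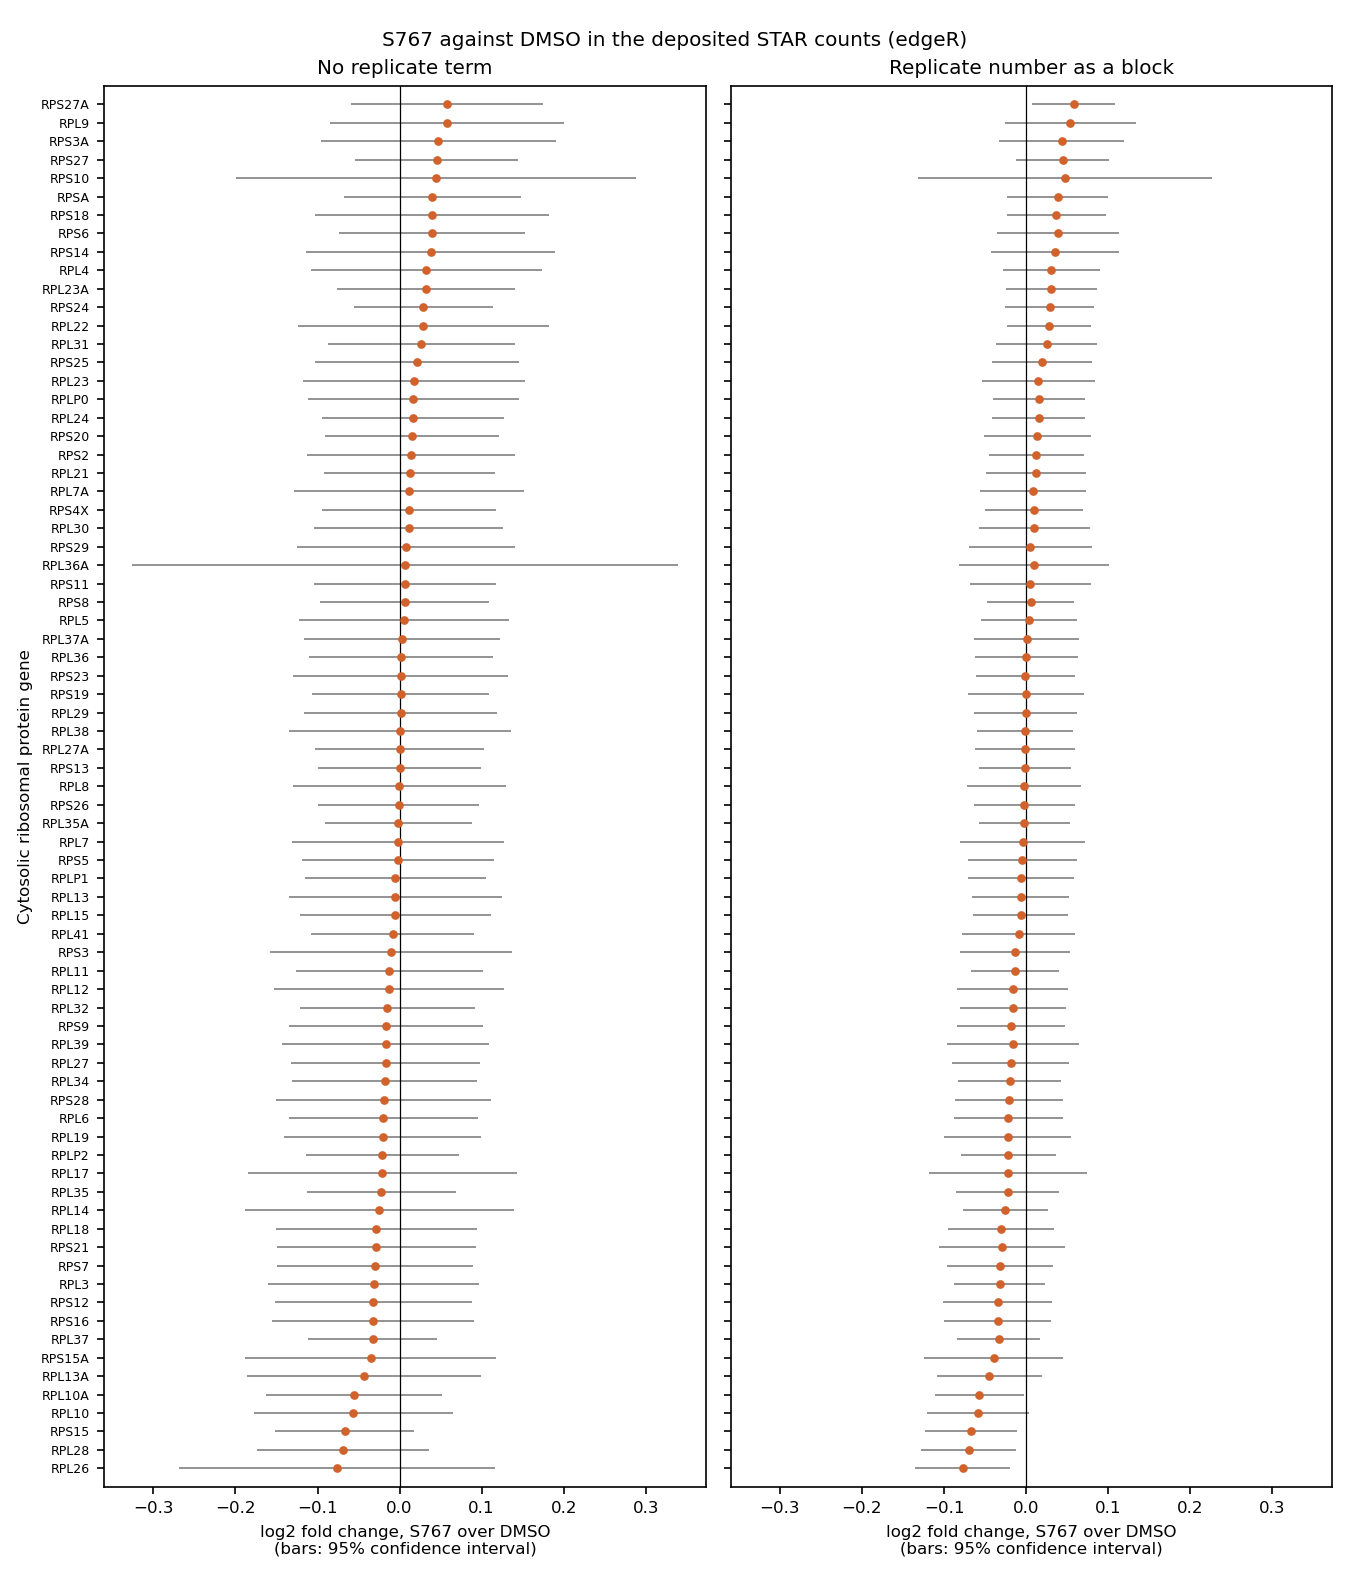
Log2 fold changes of S767 over DMSO from the STAR counts are shown as points for 75 of the 77 genes, with 95% confidence intervals as bars, without a replicate term (left) and with the replicate number as a block (right). In the left panel the points run from -0.076 for RPL26 to 0.058 for RPS27A and every bar crosses 0, while in the right panel the bars of 5 genes do not cross 0.

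Of the 31 small subunit genes 18 lay above 0, and the median of their log2 fold changes was 0.0062. RPS27A encodes a fusion of ubiquitin and a small subunit protein. Its CPM (counts divided by the library total, here scaled with TMM factors) were 640, 698 and 699 in DMSO and 671, 718 and 731 in S767. The groups overlapped, each S767 library lay above the DMSO library of the same number, and the log2 fold change was 0.058 (SE 0.051), with an edgeR adjusted p of 0.223 under the block, where the SE was 0.023.

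RPS15, a protein of the small subunit head, had 838, 840 and 813 CPM in DMSO and 779, 791 and 808 CPM in S767. All 3 S767 libraries lay below all 3 DMSO libraries, and the log2 fold change was -0.067 (SE 0.037), with an adjusted p of 0.206 under the block. RPS19, mutated in Diamond-Blackfan anemia, had 865, 850 and 837 CPM in DMSO and 799, 878 and 877 CPM in S767, with a log2 fold change of 0.0013 (SE 0.047). S767 replicate 1 was its lowest library and the other S767 libraries were its highest. RPS14, whose loss marks myelodysplasia with a 5q deletion, had 933, 1006 and 957 CPM in DMSO and 896, 1002 and 1075 CPM in S767, with a log2 fold change of 0.038 (SE 0.066). The S767 libraries included both its lowest and its highest value.

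RPS6, the substrate of the S6 kinases, had a log2 fold change of 0.039 (SE 0.050) in STAR counts and -0.013 in log2(TPM + 1). RPSA, also known as the laminin receptor, had 0.040 (SE 0.047), and RPS3, which lines the mRNA entry channel, had -0.0099 (SE 0.065). RPS3A (0.047, SE 0.063) and RPS27 (0.045, SE 0.043) completed the 5 largest values above 0 together with RPS27A, RPL9 (0.058, SE 0.063) and RPS10 (0.045, SE 0.11). The 95% interval of each of these genes included 0.

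Of the 43 large subunit genes 17 lay above 0, and the median of their log2 fold changes was -0.0051. RPL28 had 694, 722 and 700 CPM in DMSO and 633, 691 and 692 CPM in S767. Its groups did not overlap, and the log2 fold change was -0.069 (SE 0.046), with an adjusted p of 0.197 under the block. RPL10A had 705, 744 and 711 CPM in DMSO and 655, 721 and 702 CPM in S767, with a log2 fold change of -0.056 (SE 0.047). Its groups overlapped, although each S767 library lay below the DMSO library of the same number.

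RPL10, which joins the large subunit late in its assembly, had 1109, 1152 and 1132 CPM in DMSO and 1009, 1152 and 1102 CPM in S767 (log2 fold change -0.057, SE 0.053). RPL5 and RPL11, which with 5S rRNA form the particle that binds MDM2, had log2 fold changes of 0.0052 (SE 0.056) and -0.013 (SE 0.050). RPL3, which reaches the peptidyl transferase center, had -0.031 (SE 0.056). None of these genes had groups that stood apart.

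The stalk genes had log2 fold changes of 0.017 (SE 0.056) for RPLP0, -0.0050 (SE 0.048) for RPLP1 and -0.021 (SE 0.041) for RPLP2. RPLP0, often used as a reference gene in quantitative PCR, had 1864, 1967 and 2011 CPM in DMSO and 1826, 2034 and 2052 CPM in S767, with the lowest and the highest value both among the S767 libraries.

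In all, the groups did not overlap for 3 of the 77 genes, against 9.21% of all genes tested, and all 3 were lower in S767, against 4.08% of all genes. They were RPL28, RPS15 and RPL37, whose CPM were 523, 525 and 523 in DMSO and 503, 512 and 520 in S767. The 3 same-numbered pairs moved up together in 2 genes (2.60%), RPL22 and RPS27A, against 19.9% of all genes, and down together in 6 genes (7.79%), RPL37, RPL10A, RPL26, RPS15, RPL28 and RPL3, against 17.8% of all genes.

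The 77 genes varied together between libraries. The value of a gene was taken as log2 CPM minus its mean over the 6 libraries. The medians of the 77 genes were -0.020, 0.030 and -0.0033 in DMSO replicates 1 to 3 and -0.11, 0.042 and 0.053 in S767 replicates 1 to 3. S767 replicate 1 was the lowest library for 69 of the 77 genes. The highest library was S767 replicate 3 for 39 genes, S767 replicate 2 for 20 genes and DMSO replicate 2 for 14 genes. Over all genes tested the median deviation in S767 replicate 1 was 0.0067, a value that the scaling itself holds near 0.

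Over the 2926 pairs of the 77 genes the median correlation across the 6 libraries was 0.80, and 91.2% of the pairs were above 0. These points share their library and its scaling, and the value is a description. No such value for other genes was set beside it, so it is not shown to be particular to these 77. The median deviation in S767 replicate 1 was -0.11 in the 50 genes with a TOP match and -0.11 in the 12 genes with an entry and no match. Only a single annotated start was read for each gene, so the 12 genes are not known to lack TOP mRNAs. In 17 translation factors and other genes listed for TOP RNAs the median deviation in that library was -0.10. It was -0.040 in 46 ribosome biogenesis genes and -0.023 in 77 genes for mitochondrial ribosomal proteins.

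The within-group SD of log2 CPM had a median of 0.070 for the 77 genes and 0.14 for all genes tested, which include genes with low counts. The range of a gene over the 6 libraries had a median of 0.18 on the log2 scale. The direction of the small differences rested on single libraries. The number of genes above 0 was 36 with all libraries, 67 without S767 replicate 1, 20 without S767 replicate 2 and 10 without S767 replicate 3, while the share of all genes tested that lay above 0 stayed between 48.5% and 51.2% in these 3 fits. Without S767 replicate 1, RPS3A (log2 fold change 0.12), RPL9 (0.12) and RPS18 (0.10) had P under 0.05 in edgeR, against 4.91% of all genes, each with an adjusted p of 0.931. What sets S767 replicate 1 apart was not tested.

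**Figure D3:**
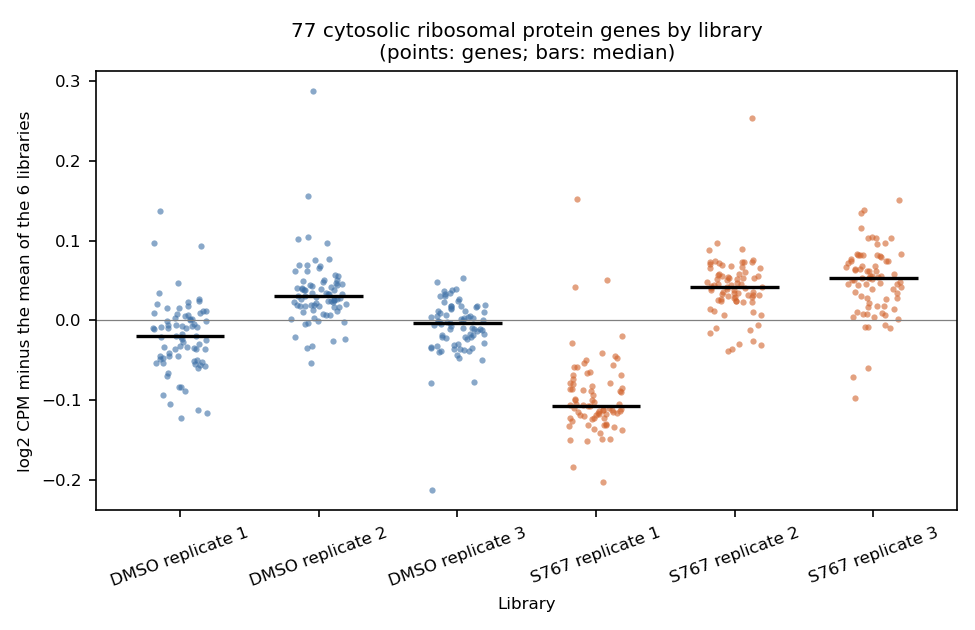
Each point is 1 of the 77 genes, its log2 CPM minus its mean over the 6 libraries, and bars mark the median of each library. The median is -0.11 in S767 replicate 1 and between -0.020 and 0.053 in the other 5 libraries.

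The way fragments were assigned changed the levels of some genes far more than S767 did. The STAR counts hold fragments that mapped to a single place and a single gene, whereas RSEM divides fragments that match several transcripts among them. Relative to the total of each table, RSEM gave between 0.9 and 1.1 times the STAR value for 50 of the 77 genes, with a median ratio of 1.02. It gave at least 2 times as much for 12 genes (15.6%), against 4.27% of the other genes tested, and at least 10 times as much for 6 genes. With STAR the highest mean CPM exceeded the lowest by 658-fold, and with RSEM by 8.03-fold.

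The largest gap was that of RPS10 (chr6:34417454-34426125, - strand, GENCODE 29 on GRCh38). Its STAR counts were 641, 506 and 798 in DMSO and 842, 558 and 601 in S767, the fewest of the 77 genes. RSEM assigned it 132252, 87804 and 153926 expected counts in DMSO and 133970, 108875 and 126106 in S767, a mean ratio of 180 that ranged from 152 to 199 over the libraries. Of its main transcript of 588 bases, 84.0% is also annotated, on the same strand, as exon of the read-through gene RPS10-NUDT3. That gene had a STAR count of 0 in every library and 3465 to 6397 RSEM expected counts. Stretches of the RPS10 transcript also occur in annotated transcripts of other places, as given below.

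RPL17 (ratio 68.2, overlapped by RPL17-C18orf32), RPL36A (22.5, RPL36A-HNRNPH2) and RPL26 (16.9, AC135178.2) also had ratios above 10. These overlapping genes cover 65.3% to 91.0% of the main transcripts on the same strand, and each had a STAR count of 0 in every library. RPS15A (ratio 6.58, 41.5% covered by AC138811.2) and RPL22 (4.16, 11.1% covered by AL031847.2) shared smaller stretches. RPL36A held 2575 to 3166 STAR counts per library and 51081 to 85703 RSEM expected counts.

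Of the genes with a ratio of at least 2, 5 had no same-strand overlap, among them RPL39 (12.4), RPS26 (4.10), RPL41 (3.98) and RPL21 (2.02). Of all 50-base windows of the main transcript, 36.6% in RPL39, 56.8% in RPS26, 44.0% in RPL41 and 74.3% in RPL21 also occur in annotated transcripts of other places. Among the genes named above with a same-strand overlap, this share was 83.3% in RPS10, 73.5% in RPL17, 71.6% in RPL36A and 46.6% in RPL26. It was 30.5% in RPS15A and 14.7% in RPL22. Overlap and shared windows thus occur together in these genes, and their parts in the ratio were not tested separately. RPL21 has 133 named pseudogenes, the most of the 77 genes. RPL9 had the highest share of such windows, 86.0%, with a ratio of 1.32, and RPL38 had none, with a ratio of 0.963. Across the 77 genes the rank correlation of the ratio was 0.56 with the share of windows found elsewhere, 0.35 with the share overlapped on the same strand and 0.33 with the number of named pseudogenes, given as a description over genes that share all 6 libraries.

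**Figure D4:**
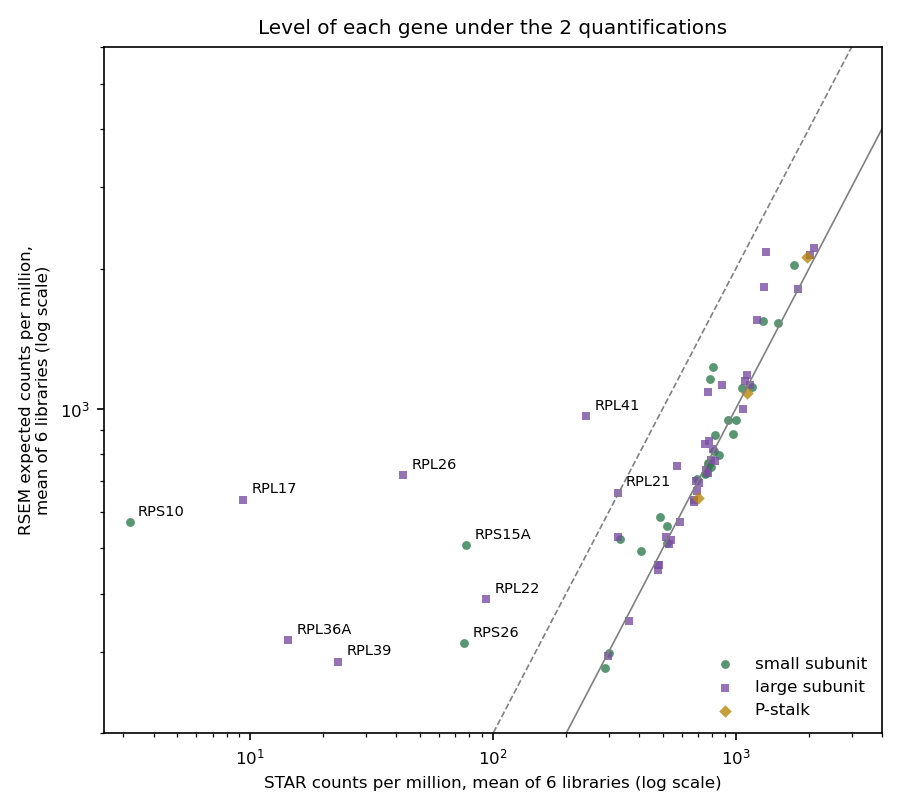
Mean CPM from RSEM expected counts is plotted against mean CPM from STAR counts on log axes for 75 of the 77 genes, from the small subunit (circles), large subunit (squares) and stalk (diamonds), with a solid line at equal values and a dashed line at 2 times. The named genes lie at or above the dashed line, farthest for RPS10 at 3.19 by STAR and 570 by RSEM.

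The pseudogenes took a small share of fragments. Of 1588 pseudogenes named after the 77 genes, 393 passed the filter on low counts, and together the 1588 had 1.63% to 1.70% as many STAR counts as the 77 genes in each library, and 1.64% to 1.73% as many RSEM expected counts. The highest were RPS2P5 (61092 to 106239 STAR counts per library), RPL13P12 (15028 to 25052) and RPSAP58 (10133 to 19282). At P under 0.05 in edgeR 4 of the 393 were higher and 5 lower in S767, against 2.03% and 1.51% of all genes, with a median log2 fold change of -0.033.

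For RPL41P1 and RPS28P7 the 2 tables disagreed. RPL41P1 (chr20:21755270-21755350, + strand) had 2301 to 4187 STAR counts per library and 19.0 to 32.8 RSEM expected counts. RPS28P7 (chr11:82689559-82689768, + strand) had 5030 to 8031 STAR counts and 82.0 to 162 RSEM expected counts. Over the whole coding sequence, 78 bases for RPL41 and 210 bases for RPS28, each pseudogene has 0 differences from its parent in the GENCODE 29 transcripts. The sequences are shown because a fragment that lies wholly within them matches parent and copy alike. Bases outside them were not compared, and why the 2 tables disagreed was not tested. The sequences are in lower case throughout because no base differs.
RPL41 and RPL41P1: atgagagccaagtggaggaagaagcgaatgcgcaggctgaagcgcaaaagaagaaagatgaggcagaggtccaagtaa
RPS28 and RPS28P7: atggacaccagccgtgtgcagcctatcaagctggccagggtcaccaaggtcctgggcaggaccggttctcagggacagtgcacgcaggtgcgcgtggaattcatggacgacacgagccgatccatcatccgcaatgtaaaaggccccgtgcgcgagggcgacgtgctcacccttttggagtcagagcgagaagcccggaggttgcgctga

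The S767 comparison was nearly the same in the RSEM tables. In RSEM expected counts 0 of the 77 genes had P under 0.05 in edgeR, against 3.70% of all genes, and the log2 fold changes ran from -0.072 to 0.052 with a median of -0.0040. With the block 2 genes, RPL28 and RPL10A, were lower at P under 0.05, against 17.6% of all genes, and 0 passed the adjustment, against 2.09% of all genes. Of all genes 7.90% were lower at P under 0.05 in that fit. In log2(TPM + 1), compared with limma, 0 genes had P under 0.05, against 5.12% of all genes, and 2 did with the block, against 11.8%, both lower, against 6.82%. The number of genes above 0 was 37 in RSEM expected counts and 22 in log2(TPM + 1), where 42.8% of all genes lay above 0.

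The log2 fold changes from STAR and from RSEM counts differed by a median of 0.0083 in size, had the same sign in 58 of the 77 genes, and correlated at 0.82 across the genes, which come from the same libraries. They differed by more than 0.05 in 2 genes. RPL26 had -0.076 (SE 0.084) in STAR counts and -0.0081 (SE 0.062) in RSEM counts, and RPL23A had 0.032 (SE 0.047) and -0.028 (SE 0.053). For RPS10, with the widest gap in level, the log2 fold change was 0.045 (SE 0.11) in STAR counts and 0.012 (SE 0.049) in RSEM counts, and for RPL36A the SE fell from 0.15 to 0.044. The share of fragments held by the 77 genes showed the same picture, with 5.67%, 5.79% and 5.73% of STAR counts in DMSO and 5.39%, 5.79% and 5.94% in S767. In RSEM expected counts it was 6.77% ± 0.060 (SD, n = 3) in DMSO and 6.75% ± 0.32 in S767. The larger spread in S767 came with replicate 1 as the lowest and replicate 3 as the highest library.

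**Figure D5:**
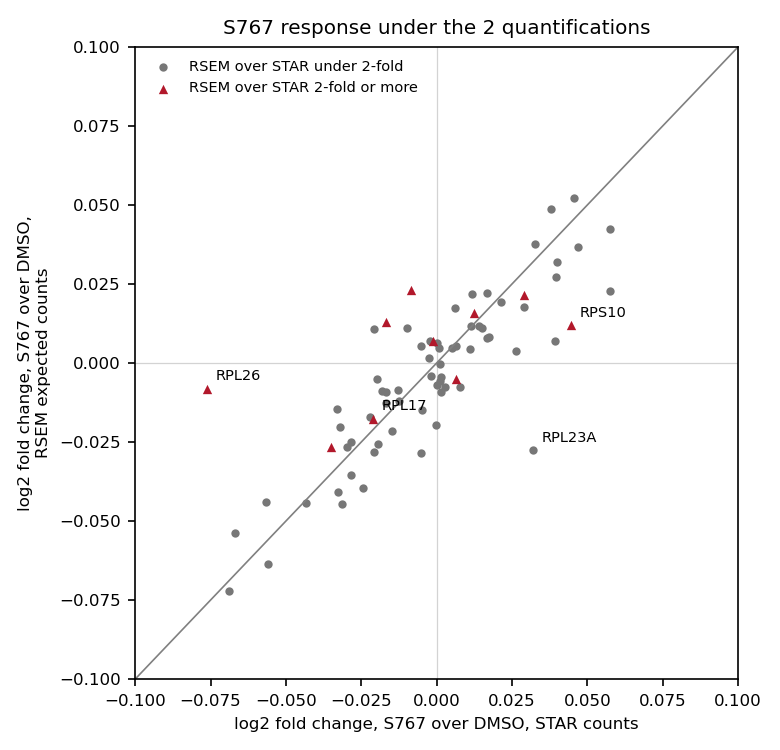
Log2 fold changes of S767 over DMSO from RSEM expected counts are plotted against those from STAR counts for 75 of the 77 genes, with a line at equal values and triangles for genes whose level differed at least 2 times. All values lie within 0.1 of 0, and RPL26 and RPL23A lie farthest from the line.

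Genes that encode close relatives of these proteins, or ribosomal proteins under other names, were followed as well. Of 11 such genes 9 were tested, 1 was higher at P under 0.05 and 0 were lower, against 2.03% and 1.51% of all genes. FAU, which encodes a small subunit protein fused to a ubiquitin-like domain, had a log2 fold change of -0.0041 (SE 0.057). RPL22L1 had -0.0044 (SE 0.047) and RPL36AL -0.049 (SE 0.041).

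RPS27L, a paralog of RPS27 that is a known p53 target, had 76.8, 68.2 and 69.4 CPM in DMSO and 81.7, 74.8 and 82.5 CPM in S767. The groups overlapped, with the highest DMSO library above the lowest S767 library, and each S767 library lay above the DMSO library of the same number. The log2 fold change was 0.16 (SE 0.058, adjusted p = 1 in edgeR), and with the block RPS27L was up-regulated at an adjusted p of 0.016 in edgeR. RPS27 itself, at 396, 407 and 402 CPM in DMSO and 392, 421 and 430 CPM in S767, had an adjusted p of 0.432 with the block, and the difference between the paralogs was not tested.

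Of 6 genes listed for the link between ribosomal proteins and p53, 2 were higher at P under 0.05 without the block, MDM2 and RPS27L, against 2.03% of all genes. With the block 3 passed the adjustment, all above 0, against 3.23% of all genes in either direction. Whether ribosomal proteins took part in these differences was not tested. The paper reports that S767, at another dose, raised a protein mark of DNA lesions in this line. Any link of that mark to these differences was not tested either. MDM2, the p53 ubiquitin ligase that RPL5 and RPL11 bind, had 144, 137 and 136 CPM in DMSO and 169, 153 and 166 CPM in S767 (log2 fold change 0.23, SE 0.049, adjusted p = 1 without and 0.0010 with the block). CDKN1A had 226, 137 and 161 CPM in DMSO and 261, 181 and 199 CPM in S767 (log2 fold change 0.30, SE 0.031, adjusted p = 0.00045 with the block). Without the block the SE of CDKN1A was 0.19 and its adjusted p was 1, and DMSO replicate 1 lay above 2 of the 3 S767 libraries.

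In the other lists, which are short against the 3.53% of all genes at P under 0.05, few genes were called. Of 17 tested translation factors and other genes listed for TOP RNAs 0 had P under 0.05 in edgeR, with a median log2 fold change of -0.016. Of 46 ribosome biogenesis genes 0 had P under 0.05, with a median of -0.019, and 0 passed the adjustment with the block, where BRIX1, a factor of large subunit assembly, had the lowest adjusted p of the list, 0.078. Of 11 chaperones of ribosomal proteins 0 had P under 0.05, with a median of -0.012.

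Of 16 regulators of TOP mRNAs, 2 were higher and 0 lower at P under 0.05, against 2.03% and 1.51% of all genes. They were TSC2, a subunit of the complex that holds mTORC1 back (0.092, SE 0.039), and EIF4EBP2, a translational repressor inhibited by mTORC1 (0.11, SE 0.042). With the block EIF4EBP2 (adjusted p = 0.027) and the mTOR inhibitor DEPTOR (0.19, SE 0.034, adjusted p = 0.014) were up-regulated, against 3.23% of all genes called in either direction. At P under 0.05 in edgeR with the block, 4 of the 16 were higher and 0 lower, against 9.38% and 7.39% of all genes. MTOR itself was among the 4 (0.062, SE 0.023, adjusted p = 0.191 with the block). LARP1 had -0.047 (SE 0.035) without the block. Without the block DEPTOR had an SE of 0.27 and an adjusted p of 1, and its groups overlapped, at 10.2, 17.6 and 18.7 CPM in DMSO and 11.6, 19.8 and 21.4 CPM in S767. Of 15 genes of ribosome quality control 1 was higher at P under 0.05, ASCC3, a helicase that splits collided ribosomes (0.12, SE 0.040), against 2.03% of all genes. With the block ASCC3 was up-regulated (adjusted p = 0.019) and PELO, which rescues stalled ribosomes, was down-regulated (-0.13, SE 0.032, adjusted p = 0.048), against 3.23% of all genes called in either direction. Without the block PELO had an SE of 0.11 and an adjusted p of 1.

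The mitochondrial ribosomal proteins, which are encoded by other genes and work in another ribosome, served as a comparison. Of 78 such genes 77 were tested, 0 were higher and 1 lower at P under 0.05, against 2.03% and 1.51% of all genes, with a median log2 fold change of -0.0023 against -0.0010 for the cytosolic set. MRPS30 had 67.6, 65.1 and 68.0 CPM in DMSO and 63.5, 60.4 and 63.8 CPM in S767, so its groups did not overlap. Its log2 fold change was -0.096 (SE 0.040), with an adjusted p of 1 without and 0.049 with the block.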

How the data were processed

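Stranded polyA RNA was sequenced from OCI-AML5 cells, and the labels gave each library its treatment and number. The authors deposited gene counts from STAR 2.7.1a (versions as in the submitters' processing notes, build GRCh38), whole numbers without normalization. They also deposited RSEM 1.2.28 tables with expected counts, which need not be whole, and TPM, which share a fixed total per library. The annotation release is not given in the sources used here. The 4 summary lines of each count table, 19.7% to 20.7% of fragments, were left out, and 0 columns of samples were unused. The column that counts the reverse strand was used, since the kit is stranded and the other strand held 6.44% to 6.58% of the counts of both.

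The members and gene lists were chosen with earlier results of these data known. Symbols were found for 60590 of 60609 identifiers. Counts were normalized by TMM, filtered with filterByExpr (minimum count 10) and tested with edgeR 4.0.16 (R 4.3.3) without a block, adjusted by Benjamini-Hochberg over all genes tested. Expected counts were rounded for edgeR, and log2(TPM + 1) was tested with limma 3.58.1. Standard errors were derived from the fold change and the root of its F value. Log2 CPM used a prior count of 2. The replicate numbers were taken as pairs because deviations from group means over 6191 genes correlated at 0.78, 0.87 and 0.75 between same-numbered libraries and below 0 between others, although the sources do not say what a number shares. Alternatives were DESeq2 1.42.0, limma-voom, other scaling, no filter, a pseudocount of 0.1, the block, RSEM tables and each library left out. The edgeR step was tested on simulated data.

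The main transcript of a gene was its protein-coding principal transcript in GENCODE 29 closest in length to the RSEM value. Start windows came from the RefSeq promoter table. Genes named were those at the ends of fold change, TPM and RSEM to STAR ratio, those with pairs of a single direction, and a list by role. RPL21, RPL23A, RPL37, RPL38, RPL39, RPS15A, RPS18, RPS28, LARP1, MTOR, BRIX1, RPL41P1 and RPS28P7 were named after their values were seen. No pair of libraries repeated another. Counting error was small for most of these genes at this depth, but less so for RPS10, which had as few as 506 STAR counts in a library. A few genes enter the counts and medians but are not reported here by name, and the plots of single genes leave them out.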

Additional observations from a re-analysis of the deposited data

How the results depend on the processing

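The replicate block moved the number of cytosolic ribosomal protein genes at P under 0.05 from 0 to 5 in STAR counts, to 2 in RSEM expected counts and to 2 in log2(TPM + 1), and the pairing it rests on comes from the values. Leaving out 1 library at a time gave 0 to 3 such genes, and 0 passed the adjustment under each alternative. The number of genes above 0 was 22 with TPM, for pseudocounts of 1 and 0.1 and with the block, and 10 to 67 with 1 library left out, as given for S767 replicates 1, 2 and 3 in the report. The median of the biogenesis list was -0.035 in log2(TPM + 1), with and without the block, and -0.036 with a pseudocount of 0.1, and that of the TOP regulators was 0.0072 and 0.0073. The cause of these shifts was not tested. With 1 library left out the median ran from -0.028 to 0.034 for the translation factors and other genes listed for TOP RNAs. It moved without DMSO replicate 2 and S767 replicate 1. For the pseudogenes the median ran from -0.090 to 0.030 (moved without S767 replicate 1). For sets of genes 278 other values, and for named genes 530 values against 10 that moved (among them RPS6, at -0.013 in each TPM fit), stayed on their side of the threshold or within their spread. For RPS10, RPL17, RPL36A and RPL26, RSEM gave more than 10 times the STAR value. Other annotated genes overlap them on the same strand, and stretches of their main transcripts also occur in transcripts of other places. The reason for these high ratios was not tested. A fragment wholly within bases that pseudogene and parent share matches both genes.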
